A study of Mus musculus with 84 samples.

Results

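H3K27me3 at promoters was compared between adipocyte nuclei of mice that had lost weight after 12 weeks of high-fat diet (HC) and of chow-fed mice of the same age (CC_s). The comparison used 6 of the 84 CUT&Tag libraries of the series, 3 per group. A promoter was the window of 2000 bp either side of a start site of a protein-coding gene, and it counted as marked when an H3K27me3 peak overlapped it by 1 bp or more. Of 21851 genes with such windows, 36 were marked in 3 of 3 HC and 0 of 3 CC_s libraries (called gained below) and 181 were marked in 0 of 3 HC and 3 of 3 CC_s libraries (called lost). These 217 promoters and what they have in common are described here.

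All animals were AdipoERCre x NuTRAP mice given tamoxifen before the diets began, in which a Cre driven in adipocytes switches on a biotin tag on the nuclear envelope and a GFP tag on ribosomes. Nuclei were pulled down from frozen epididymal fat by the tag, so a library stands for labelled adipocyte nuclei and whatever else the beads kept. HC mice ate high-fat diet for 12 weeks and then chow for 8 weeks, and were 26 weeks old when sampled, as were the CC_s mice, which ate chow throughout. The mice at the end of the 12-week diet (H, 2 libraries, against chow-fed C, 3 libraries, 18 weeks old) and the mice that lost weight after 25 weeks of diet (HHC, 3 libraries, against chow-fed CCC, 2 libraries, 39 weeks old) had no part in the calls, and show how the same promoters and the peak lists stood in other animals.

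H3K27me3 is laid down on histone H3 by Polycomb repressive complex 2 and marks genes that a cell keeps silent. In differentiated cells it lies in broad domains over the regulators of other lineages, such as Hox genes and developmental transcription factors, and in narrower stretches over single promoters. In adipocytes it is thus known from genes of other cell types as well as from lineage regulators, and CpG-rich promoters are its usual seat.

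The promoters below are shown because their peaks overlapped in every library of the group that carried the mark, so that the same bases were marked in 3 libraries and in none of the other 3. Sequences are GRCm38, read 5′ to 3′ on the strand of the gene, clear of annotated exons, with each CG dinucleotide (the letters CG, found on either strand alike) in capitals. Kcns3 (chr12:11148788-11149042, minus strand, 1331 to 1585 bp downstream of the start site, in an intron), Fst (chr13:114457262-114457556, minus strand, 1030 to 1324 bp downstream, in an intron) and Wnt5a (chr14:28503983-28504066, plus strand, bases -767 to -684 from the start site) were gained, and the bases printed are the whole stretch shared by the peaks of the 3 HC libraries.
Kcns3: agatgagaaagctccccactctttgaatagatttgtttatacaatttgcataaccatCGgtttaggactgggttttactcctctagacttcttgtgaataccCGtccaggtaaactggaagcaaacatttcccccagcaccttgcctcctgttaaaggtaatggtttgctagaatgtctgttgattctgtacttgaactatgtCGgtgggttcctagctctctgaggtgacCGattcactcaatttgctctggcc
Fst: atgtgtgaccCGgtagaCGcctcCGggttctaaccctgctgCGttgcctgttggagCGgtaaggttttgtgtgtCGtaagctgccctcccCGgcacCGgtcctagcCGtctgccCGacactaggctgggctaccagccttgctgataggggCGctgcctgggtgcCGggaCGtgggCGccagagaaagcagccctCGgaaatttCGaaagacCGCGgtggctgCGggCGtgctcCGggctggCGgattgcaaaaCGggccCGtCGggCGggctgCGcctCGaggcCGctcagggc
Wnt5a: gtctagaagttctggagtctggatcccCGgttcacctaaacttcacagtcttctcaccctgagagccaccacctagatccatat

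Syk (chr13:52582934-52583096, plus strand, bases -239 to -77 from the start site) was lost, and its stretch was shared by the peaks of the 3 CC_s libraries. For Fli1 (chr9:32541596-32541845, minus strand) and Fcgr2b (chr1:170976548-170976797, minus strand) the 250 bases just upstream of the start site are printed, all of them inside peaks in each CC_s library and outside peaks in each HC library. The Fli1 bases lie in an intron of a longer transcript of the same gene, and those of Fcgr2b in an intron of the overlapping gene model Gm38204.
Syk: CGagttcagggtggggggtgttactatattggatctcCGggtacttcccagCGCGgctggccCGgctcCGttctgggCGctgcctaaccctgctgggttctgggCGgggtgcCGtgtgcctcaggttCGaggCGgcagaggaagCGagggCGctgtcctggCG
Fli1: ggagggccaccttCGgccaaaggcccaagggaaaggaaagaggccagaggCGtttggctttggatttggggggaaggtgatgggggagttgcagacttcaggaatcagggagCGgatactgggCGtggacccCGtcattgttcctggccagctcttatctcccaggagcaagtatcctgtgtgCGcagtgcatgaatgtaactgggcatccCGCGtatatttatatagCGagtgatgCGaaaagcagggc
Fcgr2b: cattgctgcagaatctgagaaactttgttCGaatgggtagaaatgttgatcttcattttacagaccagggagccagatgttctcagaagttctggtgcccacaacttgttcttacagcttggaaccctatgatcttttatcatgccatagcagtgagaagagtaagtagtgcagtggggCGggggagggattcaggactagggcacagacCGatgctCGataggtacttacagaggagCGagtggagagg

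The printed stretches ranged from CpG-rich to CpG-poor in either direction of change. The 295 bases of Fst held 29 CG, and 11.7% of all promoters held as many in the 295 bases upstream of their start site, where the median was 10. Syk held 14 in 163 bases, a number reached by 25.4% of promoters over the same length, with a median of 6. Fli1 held 10 in 250 bases (48.1% of promoters held as many), Fcgr2b 5 (64.1%), Kcns3 4 in 255 bases (69.5%) and Wnt5a 1 in 84 bases (80.5%). A low count says only that these letters are rare in the stretch shown.

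The H3K27me3 lists of HC were narrower than those of CC_s, and HC replicate 2 stood apart from the rest. Peaks covered 30.2, 8.54 and 36.3 Mb in HC replicates 1, 2 and 3, against 43.2, 52.4 and 60.5 Mb in the CC_s libraries, so the groups did not overlap. Mean covered length was 25.0 ± 14.6 Mb in HC and 52.0 ± 8.64 Mb in CC_s (SD, n = 3), a log2 difference of -1.29 (two-sided exact permutation p = 0.1, the smallest that 3 against 3 allows; 0.25 after Benjamini-Hochberg adjustment over 5 library measures). Median peak width was 795, 332 and 914 bp in HC and 1097, 1175 and 1170 bp in CC_s, a log2 difference of -0.88 with the same exact p of 0.1 and adjusted value of 0.25.

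The number of peaks and of marked promoters differed by less than the spread between libraries. HC had 30687, 21809 and 34834 peaks and CC_s 29298, 33390 and 37666 (log2 difference -0.22, exact permutation p = 0.5). HC had 3273, 2243 and 3893 marked promoters and CC_s 3310, 3583 and 3558 (exact permutation p = 0.7), and the share of peaks at promoters was 16.1% ± 1.34 in HC and 15.7% ± 1.38 in CC_s (SD, n = 3; exact permutation p = 0.8). Replicate 2 was lowest in each of these counts within HC, so the counts of calls over all promoters are also given without it. A peak list holds the 1% of signal blocks with most coverage in its library and gives no read depth. A promoter outside a peak is therefore below that limit in its library, which does not show that it lacked the mark.

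**Figure D1:**
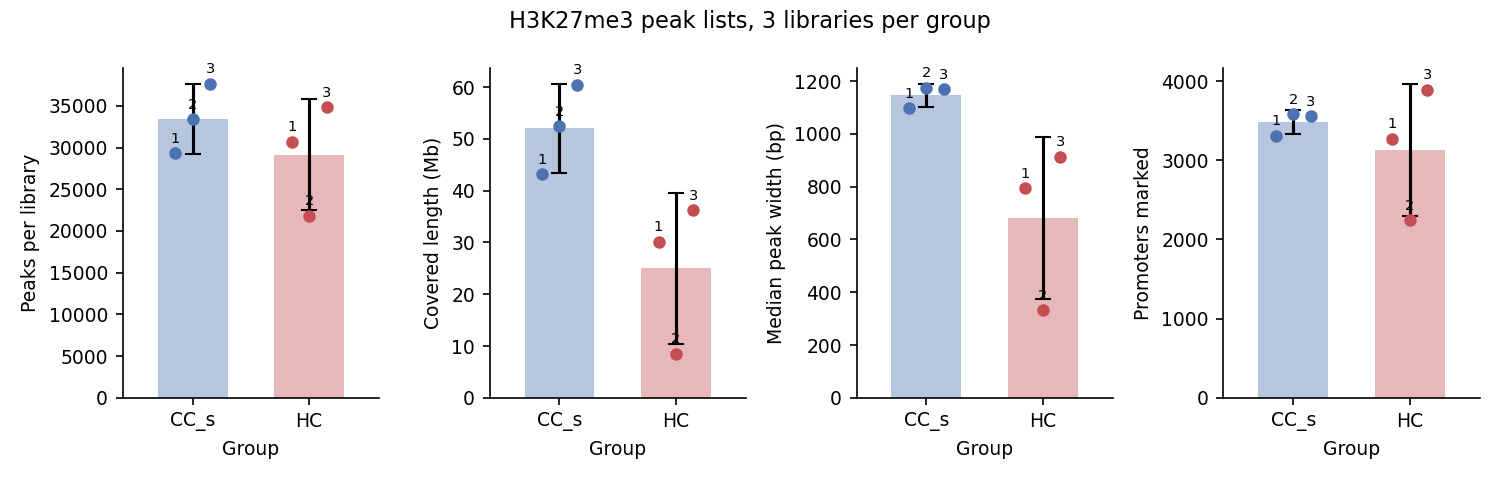
Peaks, covered length (Mb), median peak width (bp) and marked promoters of the 6 H3K27me3 libraries, with points numbered by replicate, bars at the group mean and error bars of 1 SD (n = 3). HC replicate 2 is lowest in all 4 panels, and covered length and width do not overlap between the groups.

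The adipocyte label was checked on the active marks of the same groups. Of 15 adipocyte markers, 14, 14 and 15 carried H3K4me3 in CC_s and 14, 14 and 11 in HC replicates 1, 2 and 3, and 15 carried H3K27ac in each library except HC replicate 3, which had 11. Lep (leptin), Retn (resistin), Adrb3 (the beta-3 adrenergic receptor) and Slc2a4 (the insulin-responsive glucose transporter GLUT4) were the 4 without H3K27ac there. HC replicate 3 also stood apart at markers of other cell types: H3K27ac was found at 14 of 20 macrophage markers and 10 of 14 endothelial markers, against 0 to 3 and 0 in the other 4 H3K27ac libraries of the 2 groups. Over all promoters H3K27ac was on 48.8% in HC replicate 3 and on 25.2% to 40.4% in the other 4. H3K4me3 was found at 10 macrophage and 11 endothelial markers in HC replicate 3 and at 0 to 3 and 0 to 4 elsewhere. The defining macrophage genes Csf1r, Adgre1 and Ptprc and the endothelial genes Cdh5, Pecam1 and Tek were among those marked in HC replicate 3, while Itgam, Mrc1, Trem2 and Cd163 carried neither mark in any of these libraries. In its H3K27me3 library, 5 of the 15 adipocyte markers were marked (Lep, Plin1, Retn, Adrb3 and Slc2a4), against 3 in HC replicate 1, 4 in HC replicate 2 and 1 to 2 in CC_s. By the study's protocol, nuclei on beads were split into wells for the antibodies, but the labels do not say whether libraries with the same number come from the same mouse. The part of other cell types in the calls below was not tested; totals without HC replicate 3 stand beside them.

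As deposited, gained promoters made up 0.165% and lost promoters 0.828% of all promoters tested, and a further 1133 were marked in all 6 libraries, 15349 in none and 5152 in some of them. No single promoter can pass a threshold of 0.05 with 3 against 3 libraries, so the calls are a description of separation and carry no p. With the same 21809 peaks in each library, kept by total signal, 46 promoters were gained (0.211%) and 164 lost (0.751%), of which 23 and 109 were called the same way as deposited. Of the single libraries left out, HC replicate 2 changed the balance of losses over gains most, though losses stayed the larger number. Without it 184 were gained (0.842%) and 210 lost (0.961%), and gains were 46.7% of calls in place of 16.6%. Without HC replicate 3, 71 were gained (0.325%) and 344 lost (1.57%). By construction every promoter called with 3 HC libraries stays called when a library is left out.

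Cutting all libraries to the covered length of HC replicate 2, 8.54 Mb, turned the balance around, to 106 gained and 1 lost. Because CC_s peaks are wider, that length holds fewer of them: 650, 615 and 526 promoters stayed marked in CC_s, and 970, 2243 and 1276 in HC. None of those 106 was among the 36. Requiring 500 bp of the window to be covered went the other way, with 6 gained and 233 lost. The named promoters are those of the deposited lists, and for groups of them the number that kept the call with equal peak numbers is given.

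**Figure D2:**
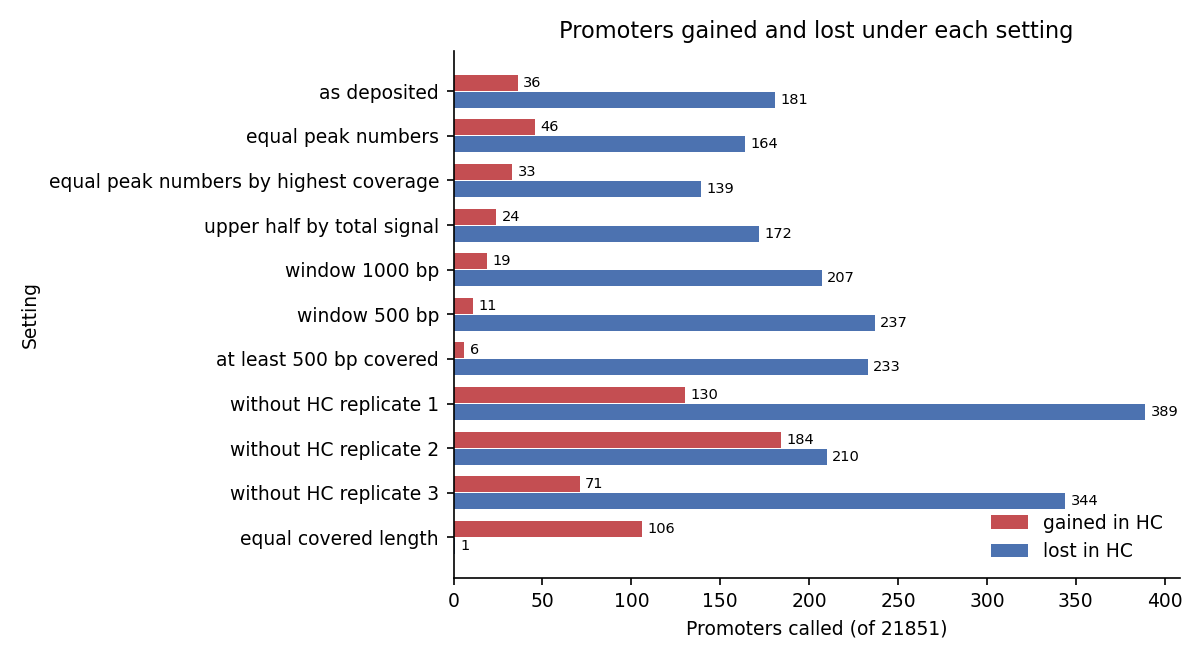
Number of promoters gained (red) and lost (blue) in HC, of 21851, under each setting on the vertical axis. Losses outnumber gains in every setting shown except equal covered length (106 gained, 1 lost), and the counts are closest without HC replicate 2 (184 gained, 210 lost).

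Of the 36 gained promoters, Kcns3, Tshr, Pkdrej and Slc25a48 had the largest difference in cover, and 29 of the 36 carried H3K4me3 in at least 1 of the 6 libraries. Kcns3, a modifier subunit of voltage-gated potassium channels on chromosome 12, had 1084, 483 and 3156 bp of its 4001 bp window in peaks in HC replicates 1, 2 and 3 and 0 bp in each CC_s library. For a gene with several start sites, the cover given here is that of the window most covered over the 6 libraries. Tshr, the thyrotropin receptor, through which thyrotropin drives lipolysis in fat cells, had 915, 1064 and 2644 bp in HC and 0 bp in CC_s. The window covered is that of an internal start site on chromosome 12 at position 91400994. A window of Tshr overlaps one of Cep128, which was not among the 36 gained. Whether the covered window is the one that overlaps was not tested. At Kcns3 and Tshr replicate 3 had the widest cover and no CC_s library reached the window.

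The growth factor genes gained were Fst, Wnt5a and Igfbp5. Fst encodes follistatin, a secreted binder of activins and myostatin, and had 1366, 300 and 1818 bp in peaks in HC against 0 in CC_s. Wnt5a, a ligand of non-canonical Wnt signalling, had 840, 84 and 821 bp, and Igfbp5, a secreted binder of insulin-like growth factors, 1287, 377 and 1610 bp. HC replicate 2 gave the least cover in each. All 3 kept the call with equal peak numbers, and each carried H3K4me3 in 3 of 3 HC libraries and in 2 or 3 CC_s libraries.

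Of adipocyte and metabolic genes, Mlxipl, Retn, Pm20d1, Tshr and Vdr were gained, and 4 of these 5 kept the call with equal peak numbers. Like the growth factor genes above and the channel, transporter and synaptic genes below, they were grouped after the calls were seen. How many such genes there are among all 21851 promoters was not counted. Their numbers therefore cannot be set against the 0.165% gained of all promoters. Mlxipl encodes ChREBP, the glucose-responsive transcription factor that drives lipogenic genes, and had 539, 119 and 1438 bp in peaks in HC. The window covered is that of an internal start site on chromosome 5 at position 135106918. Retn, the adipokine resistin, had 521, 606 and 878 bp but was not called with equal peak numbers. Pm20d1, a secreted enzyme that makes N-acyl amino acids, had 1013, 327 and 1773 bp, and Vdr, the vitamin D receptor, had 60, 86 and 776 bp, the least mean cover of the 36. At Mlxipl and Retn H3K27ac was present in both CC_s libraries and in HC replicates 1 and 2, and absent in HC replicate 3, the library with markers of other cell types.

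The other named gains were spread over many functions. Channels, transporters and synaptic genes, grouped after the called genes were seen, numbered 9, of which 5 kept the call with equal peak numbers. Kcnk3, the two-pore potassium channel TASK-1 that sets membrane potential in adipocytes among other cells, had 828, 466 and 1741 bp in HC and was not called with equal peak numbers. Among the remaining members were Slc25a48, a mitochondrial carrier (907, 293 and 2920 bp), and Rims4, a presynaptic scaffold (1119, 649 and 1647 bp). Tenm4, a teneurin adhesion receptor and also a member, had 368, 180 and 2854 bp. Outside this group, Steap2, a metalloreductase, had 959, 330 and 1655 bp, and Fam107a, a stress-responsive actin-binding protein, 1915, 199 and 1944 bp. Pkdrej, a polycystin-like gene of sperm, had 1865, 522 and 1959 bp and 2810459M11Rik, which has no assigned function here, 809, 251 and 2877 bp. Dpp4, a surface peptidase of fat progenitors, had 845, 80 and 779 bp and lost its call with equal peak numbers. Over the 36, the mean difference in cover, HC minus CC_s, ran from 307 to 1574 bp with a median of 716.5 bp, and 35 separate loci were involved.

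Of the 181 lost promoters, Fli1, Kcng4, Klk7 and Rgs4 had the largest difference in cover, and 110 of the 181 had no H3K4me3 in any of the 6 libraries. Fli1, an ETS transcription factor of endothelial and blood cells, lost the widest cover: 3790, 3391 and 4001 bp in CC_s replicates 1, 2 and 3 and 0 bp in each HC library. Next in rank were Kcng4, a modifier subunit of potassium channels (3576, 3842 and 1864 bp), Klk7, an epidermal serine protease (2605, 3041 and 3529 bp), and Rgs4, a brake on G-protein signalling (3499, 3384 and 2191 bp). Each was at 0 bp in HC and kept its call with equal peak numbers.

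After these came Hist1h2bm, a replication-dependent H2B gene with near-identical copies in its cluster (2928, 2197 and 3940 bp in CC_s), and Tgif1, a homeodomain repressor that restrains TGF-beta and retinoid responses (2018, 3171 and 3541 bp). Robo4, a Slit receptor of endothelium, had 3012, 2068 and 3467 bp, and Ush1c, a scaffold of hair-cell and gut brush-border contacts whose window overlaps that of Otog, had 2978, 3058 and 2296 bp. Slc38a1, a glutamine transporter, had 1847, 3622 and 2622 bp. Neurl3, an E3 ubiquitin ligase, had 2229, 3583 and 2187 bp, and Myh6, the alpha heavy chain of cardiac myosin, 4001, 1079 and 2905 bp. Olfr1413, an olfactory receptor gene, had 2119, 3328 and 3158 bp. The cover at these promoters in CC_s was wider than at any of the 36 gained promoters in HC in the mean, and over the 181 the mean difference, HC minus CC_s, ran from -3727 to -398 bp with a median of -1434 bp.

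**Figure D3:**
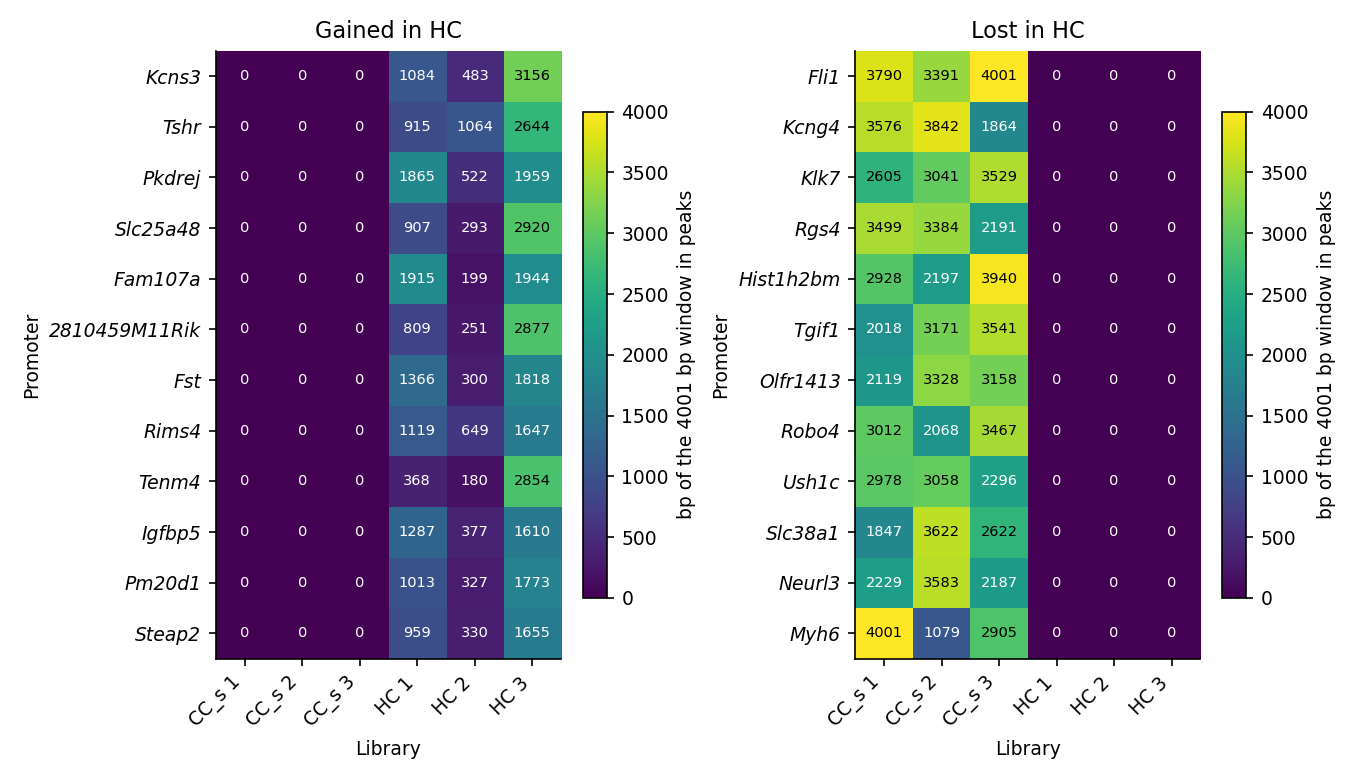
Base pairs of the 4001 bp window inside H3K27me3 peaks for the 12 gained and 12 lost promoters with the largest mean difference that were also called with equal peak numbers, by library. The number in each cell is its value, and colour runs from 0 to 4001 bp. Gained promoters reach 180 to 1064 bp in HC replicate 2 and up to 3156 bp in HC replicate 3, and lost promoters 1079 to 4001 bp in CC_s.

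Among the 181 were 25 genes of immune receptors, cytokines and their signalling, a grouping made after the called genes were seen. Members of this and the groups that follow were not counted among all 21851 promoters, so their numbers cannot be set against the 0.828% lost overall. The immune group held Fcgr2b, the inhibitory Fc receptor (2373, 1653 and 3780 bp in CC_s), C1qb, a chain of complement C1q made by macrophages (1065, 1484 and 1792 bp), and Syk, the tyrosine kinase that couples immune receptors to activation (846, 1762 and 2010 bp). Cd40, a costimulatory receptor, had 1898, 672 and 639 bp, Pdcd1, the checkpoint receptor PD-1, had 751, 1483 and 1860 bp, and Il10, an anti-inflammatory cytokine, 926, 842 and 1218 bp. Tnf, whose window overlaps that of Lta, had the least mean cover of the 181, with 482, 195 and 516 bp. Of the 25, 13 kept the call with equal peak numbers, among them Fcgr2b, C1qb, Syk, Cd40 and Pdcd1 but not Il10 or Tnf.

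Active marks at these 25 genes were found mainly in HC replicate 3. H3K27ac was at 14 of them in that library and at 0 in each of the other 4 libraries. Of all promoters, 48.8% carried H3K27ac in that library and 25.2% to 40.4% in the others. H3K4me3 was at 0, 1 and 3 of the 25 in CC_s and at 4, 4 and 14 in HC replicates 1, 2 and 3. A call of loss by definition needed all 3 HC H3K27me3 libraries to be without a peak. HC replicate 2 marked the fewest promoters of them, 10.3% of all. The part of other cell types in these losses was not tested.

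Genes of blood vessels and blood cells numbered 8 (Robo4, Fli1, Rhoj, S1pr2, Nrp2, Epor, Gp5 and Hbq1b), of which 4 kept the call with equal peak numbers. H3K4me3 was at 1, 1 and 4 of them in CC_s and 5, 3 and 7 in HC. Nrp2, a co-receptor for semaphorins and vascular growth factors, had 799, 1267 and 1676 bp of H3K27me3 in CC_s, and Epor, the erythropoietin receptor, 802, 954 and 546 bp. Hbq1b, a globin gene, shares its window with Hba-a1.

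Keratin, epidermal and kallikrein genes made up a group of 12 of the 181. It held the keratins Krt24, Krt40, Krt73 and Krt84, with Krtap16-1, Lce3b and the kallikreins Klk6, Klk7, Klk1b4, Klk1b11, Klk1b24 and Klk1b26. Of these, 10 kept the call with equal peak numbers, and none carried H3K4me3 or H3K27ac in any library of either group. Klk6 had 2796, 2990 and 2101 bp and Krt73 had 1573, 1553 and 1609 bp in CC_s. Kallikrein genes are close copies that sit side by side on chromosome 7, so reads may be shared between them. Chromosome 7 held 26 of the lost promoters, 1.29% of its 2009, against 0.828% of all promoters. The shares of chromosomes 1 (1.33%) and 13 (1.32%) were higher.

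Striated muscle genes (Myh6, Mylk2, Myf6, Casq2, Jph2 and Ano5) likewise had no H3K4me3 in either group, and 5 of the 6 kept the call with equal peak numbers. Myf6, a myogenic transcription factor, had 1720, 1198 and 1538 bp in CC_s. Ion channel genes numbered 5, and all 5 kept it. They included Kcnn4, the calcium-activated channel KCa3.1 of blood and immune cells (2083, 2656 and 2976 bp), Kcna5, the channel Kv1.5 (1768, 3304 and 1537 bp) and Scn2a, a neuronal sodium channel (1129, 303 and 109 bp). Neuronal and adhesion genes numbered 9, among them Cdh13, the T-cadherin that binds adiponectin (875, 1326 and 966 bp), and Plxnb1, a semaphorin receptor (1453, 1136 and 1197 bp), and 7 kept the call.

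H3K4me3 was in every HC library and in no CC_s library at 4 of the 181 lost promoters. These were Ggta1, the galactosyltransferase that makes the alpha-Gal epitope, with 1058, 1019 and 1320 bp of H3K27me3 in CC_s, Ahr, the aryl hydrocarbon receptor (952, 624 and 1571 bp), Lrrc32, which holds latent TGF-beta at the cell surface (1585, 939 and 378 bp), and Slc16a13, a monocarboxylate transporter (2115, 842 and 770 bp). They are the 4 of 181 with that pattern. A single gained promoter had the pattern, Dpp4. No promoter of either list had H3K4me3 in all 3 CC_s and in no HC libraries. At all 4 lost promoters H3K27ac was seen in HC replicate 3 alone, and of the 4 only Ggta1 kept its H3K27me3 call with equal peak numbers.

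Read against gene lists, most lists had no or few called members. Of 76 genes for Fc receptors, Trem and C-type lectins, 4 were lost and 0 gained (5.26%, against 0.828% lost of all promoters): Fcgr2b, Pira2 (1556, 2127 and 807 bp in CC_s), Cd300ld2 (409, 2030 and 3519 bp) and Treml2 (952, 1091 and 339 bp). All but Cd300ld2 kept the call with equal peak numbers. Of those 76, 23 were marked in fewer HC than CC_s libraries and 5 in more, where all promoters gave 2592 and 2163. Of 49 keratins 4 were lost (8.16%), all but Krt40 also with equal peak numbers, with 25 marked in fewer HC libraries and 8 in more. Of 36 genes of innate sensing and cytokines 2 were lost, Il10 and Tnf, with 9 in fewer and 3 in more. The 19 genes of leukocyte adhesion held no call, but 5 were marked in fewer HC libraries and 0 in more. HC replicate 2 had the fewest marked promoters of the 6 libraries, and its part in the counts of fewer and more libraries was not tested.

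Lists of channels and adhesion molecules held calls in both directions. The shares below stand against 0.165% gained and 0.828% lost of all promoters. Of 143 voltage-gated and potassium channels 2 were gained (1.40%, Kcns3 and Kcnk3) and 4 lost (2.80%, Kcng4, Kcnn4, Kcna5 and Scn2a). A further 40 were marked in all 6 libraries. Of 105 cadherins and protocadherins 4 were lost (3.81%) and 1 gained (0.952%). Cdh7, a classical cadherin of the nervous system, had 903, 2094 and 1239 bp in CC_s, and the clustered protocadherins Pcdhb2 and Pcdhb3 had 551, 615 and 1668 bp and 1052, 689 and 892 bp. The gained member, Pcdh7, was marked in all 3 HC libraries but in windows of different start sites, so that the window with most cover had 0, 0 and 2340 bp. Pcdh7 and Pcdhb2 were not called with equal peak numbers. Of 71 ephrins, semaphorins, slits, netrins and their receptors 3 were lost (4.23%): Robo4, Nrp2 and Plxnb1, of which Nrp2 was not called with equal peak numbers. Of 348 solute carriers 2 were gained (0.575%) and 3 lost (0.862%, close to the share of all promoters), and 6 were gained and 4 lost without HC replicate 2. Of 39 matrix proteases and inhibitors 1 was lost (2.56%), Mmp14, a membrane-bound collagenase with 773, 1016 and 1101 bp in CC_s.

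Lists of adipocyte genes held at most 1 call each. Of 15 adipocyte markers 1 was gained (Retn) and 0 lost, against 0.165% gained of all promoters, and 5 were marked in more HC than CC_s libraries against 1 in fewer. Plin1, which coats lipid droplets, was marked in HC replicates 2 and 3, and Lep and Slc2a4 in HC replicate 3. Of 31 genes of lipogenesis and triglyceride synthesis 1 was gained (Mlxipl), and 5 were marked in more HC libraries against 1 in fewer. Of 16 thermogenic genes 1 was gained (Kcnk3), with 7 in more and 2 in fewer, and of 22 adipogenic transcription factors 0 were called, with 7 in more and 2 in fewer. Of these calls Mlxipl alone held with equal peak numbers. Adipoq, encoding adiponectin, was marked in all 3 CC_s libraries and in HC replicates 1 and 2, although it carried both active marks in every library of the groups.

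Classical polycomb targets held few calls, but calls were also few over all promoters, at 0.165% gained and 0.828% lost. Promoters marked in all 6 libraries could not be called. Of 39 Hox genes 15 were marked in all 6 libraries and none was called, though 3 were gained without HC replicate 2. Of 307 developmental transcription factors 165 were marked in all 6, with 0 gained and 1 lost (0.326%), and 7 gained and 1 lost without HC replicate 2. In the latter list 41 were marked in fewer HC libraries and 32 in more. That gene was Prdm1, encoding the repressor Blimp1 of lymphocytes and germ cells, with 1330, 1268 and 1628 bp in CC_s, and it was not called with equal peak numbers. The 34 polycomb and trithorax subunit genes held no call. In the Wnt pathway 1 of 76 was gained (Wnt5a) and 1 lost (Rnf43, a ubiquitin ligase that removes Wnt receptors, with 1540, 920 and 1186 bp in CC_s, not called with equal peak numbers), and in the TGF-beta, BMP and activin pathway 1 of 67 was gained (Fst) and none lost. Of 1461 olfactory and vomeronasal receptors 1 was gained and 11 lost, 0.753% against 0.828% of all promoters.

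Of 6 genes followed in the study, 3 had no H3K27me3 peak in any of the 6 libraries: Gpam and Acacb, which act in triglyceride and fatty acid synthesis, and Cyp2e1, a cytochrome P450. Icam1, the leukocyte adhesion molecule, had 2215, 2107 and 3647 bp in CC_s and 672, 0 and 0 bp in HC, so it missed the call by HC replicate 1. Lyz2, the lysozyme of myeloid cells, had 387 bp in HC replicate 3 and 0 elsewhere. Tyrobp, a signalling adaptor of myeloid receptors, had 0, 10 and 91 bp in CC_s and 0 in HC.

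The other marks at called promoters split the lists. Of the 36 gained promoters, H3K4me3 was on 50%, 61.1% and 75% in CC_s and 55.6%, 55.6% and 50% in HC, and H3K27ac on 38.9% and 44.4% in CC_s and 36.1%, 33.3% and 25% in HC. Of the 181 lost promoters, H3K4me3 was on 6.63%, 9.39% and 18.8% in CC_s and on 21.5%, 17.7% and 38.1% in HC, so the groups overlapped by a single library pair. All promoters gave 46.4% to 55.3% in CC_s and 50.8% to 58.1% in HC. Of promoters marked by H3K27me3 in all 6 libraries, 7.50%, 10.3% and 21.4% carried H3K4me3 in CC_s and 18.3%, 13.3% and 39.4% in HC, where the groups overlapped and HC replicate 3 was highest. H3K27ac at lost promoters was 2.21% in both CC_s libraries and 1.10%, 5.52% and 31.5% in HC, the last value being that of replicate 3.

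**Figure D4:**
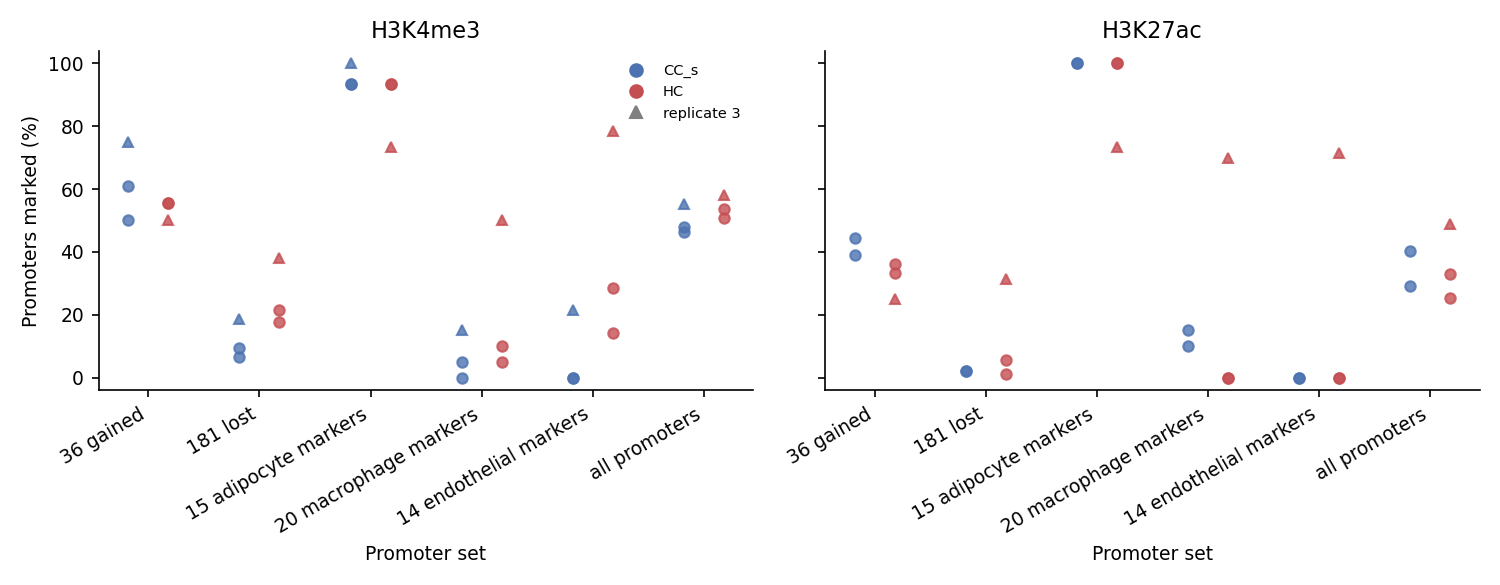
Share of promoters (%) with an H3K4me3 (left) or H3K27ac (right) peak, by promoter set, for each CC_s (blue) and HC (red) library, with triangles for replicate 3. HC replicate 3 stands at 70.0% of macrophage and 71.4% of endothelial markers for H3K27ac, where the other libraries lie between 0% and 15.0%, and at 31.5% of the lost promoters.

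The same promoters stood apart in obese mice at the end of the 12-week diet, which shared no library with HC or CC_s. Of the 181 lost promoters, 23.2% and 27.6% were marked in the 2 H libraries and 60.8%, 69.6% and 68.0% in the 3 C libraries. Of the 36 gained promoters, 77.8% and 61.1% were marked in H and 19.4%, 25.0% and 38.9% in C. All promoters gave 14.7% and 15.6% in H and 13.8% to 17.3% in C, so the overall share of marked promoters overlapped where the called sets did not. Calling H against C the same way gave 282 gained (1.29%) and 352 lost (1.61%). Of the HC calls, 6 of 36 gains (16.7%, and 2.13% of the H gains) and 45 of 181 losses (24.9%, and 12.8% of the H losses) were among them, and 0 were called in the opposite direction. The shared gains were Tshr, Fst, Tenm4, Igfbp5, Mlxipl and Wnt5a, and the shared losses were led in cover by Rgs4, Tgif1, Robo4, Ush1c, Slc38a1 and Myh6. The H peaks were also narrower than those of C, with median widths of 549 and 592 bp against 1242 to 1425 bp. The part of peak width in the shared calls was not tested.

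Mice of the longer diet were compared with their own controls. In mice that lost weight after 25 weeks of diet, 50.3%, 69.1% and 43.6% of the 181 lost promoters were marked in HHC and 79.0% and 87.3% in CCC. Of the 36 gained promoters 91.7%, 88.9% and 86.1% were marked in HHC and 52.8% and 22.2% in CCC. All promoters gave 26.0%, 20.5% and 21.8% in HHC and 20.9% and 17.9% in CCC. HHC against CCC had 299 gained (1.37%) and 160 lost (0.732%) promoters, and 10 of the 36 gains (27.8%) and 14 of the 181 losses (7.73%) were among them, again with 0 in the opposite direction. Those gains were 3.34% of the HHC gains, and the losses 8.75% of the HHC losses. Here the HHC peaks were wider, with median widths of 1499 to 1532 bp against 1259 and 1273 bp in CCC. The part of peak width in these calls was not tested.

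A handful of promoters were called alike in H, HC and HHC, each against its own controls. Gained in all 3 were Mlxipl, Fst and Wnt5a, each marked in 0 of 3 C, 2 of 2 H, 0 of 2 CCC and 3 of 3 HHC libraries. Lost in all 3 were Ggta1, Nceh1, Kcnn4, Qprt, Prdm1 and Tgif1, each marked in 3 of 3 C, 0 of 2 H, 2 of 2 CCC and 0 of 3 HHC libraries. Nceh1 is a cholesterol ester hydrolase best known from macrophages (946, 662 and 2206 bp in CC_s), and Qprt is the quinolinate enzyme of NAD synthesis (1334, 1233 and 1873 bp). In mice fed the diet for 25 weeks without weight loss (HH against CC_l, 2 libraries each, 31 weeks old), 229 promoters were gained (1.05%) and 206 lost (0.943%). Among them 0 of the 36 gains and 18 of the 181 losses recurred, and 1 loss (Rnf138rt1) was called as a gain. Mlxipl, Fst and Wnt5a were marked in 2 of 2 HH libraries, but also in 1, 1 and 2 of 2 CC_l libraries. Kcnn4, Prdm1 and Tgif1 were marked in 2 of 2 libraries of both HH and CC_l.

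**Figure D5:**
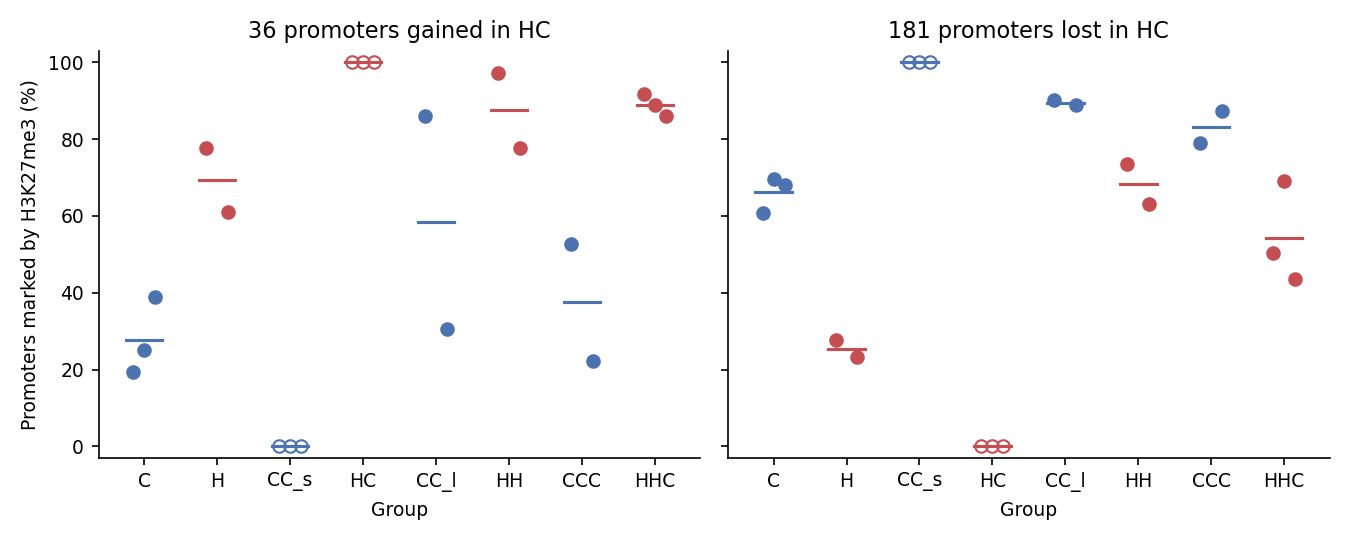
Share (%) of the 36 gained (left) and 181 lost (right) promoters with an H3K27me3 peak in each library of the 8 groups, chow-fed in blue and diet groups in red, with a line at the mean. Open points are the CC_s and HC libraries that set the calls and lie at 0% or 100% by definition. H and C do not overlap in either panel, nor do HHC and CCC. HH (97.2% and 77.8%) and CC_l (86.1% and 30.6%) overlap in the left panel but not in the right.

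Gained and lost promoters differed in sequence and in how well the peaks coincided. The observed over expected CpG ratio of the 4001 bp window had a median of 0.43 at gained promoters (interquartile range 0.33 to 0.52), 0.26 at lost promoters (0.17 to 0.40), 0.48 at promoters marked in all 6 libraries and 0.36 over all promoters. A ratio under 0.4 was found at 16 of 36 gained (44.4%), 136 of 181 lost (75.1%), 29.7% of always marked and 12244 of all 21851 promoters. GC content had medians of 50.9%, 48.7%, 53.1% and 48.1% in that order. The immune group was among the CpG-poorest with a median ratio of 0.20. The 12 keratin, epidermal and kallikrein genes had 0.17, while the 8 vessel and blood genes had 0.42.

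The peaks of the 3 marked libraries shared at least a base in 136 of 181 lost promoters (75.1%) but in only 10 of 36 gained promoters (27.8%). Over all promoters marked in 3 of 3 libraries, the share was 89.9% of 2520 in CC_s and 61.8% of 1291 in HC, and both lists lay below it. Where bases were shared, the stretch had a median of 250 bp at gained and 675.5 bp at lost promoters. At Tshr, Mlxipl, Retn, Igfbp5, Kcnk3 and Vdr no base of the window was inside peaks of all 3 HC libraries. The same held for Il10, Cd40 and Tnf in CC_s. Peaks of fewer libraries may still overlap there.

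Peaks at called promoters ranked lower in their libraries than peaks at promoters marked in all 6. By total signal within its library, the strongest peak at a gained promoter had a median rank at percentiles 40.9, 59.9 and 78.7 in HC replicates 1, 2 and 3, and at a lost promoter at percentiles 58.4, 65.5 and 68.3 in CC_s. At promoters marked in all 6 libraries, the medians were 84.0 to 92.5 in HC and 93.8 to 95.2 in CC_s. Within 5000 bp of the window, 82 of the 181 lost promoters had no peak in any HC library and 24 of the 36 gained had none in any CC_s library. For the rest a peak lay close by in at least a library of the other group.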

How the data were processed

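Peak lists of CUT&Tag libraries from labelled adipocyte nuclei were analysed. The authors aligned reads to GRCm38 with Bowtie2 2.4.4 and, on the coverage of each library separately, called peaks with SEACR 1.3 (stringent, top 1% of signal blocks), and the submitters' processing notes also name Trim Galore 0.6.6, SAMtools 1.13 and bedtools 2.30. The study's methods state that blacklisted regions were removed. Each deposited list holds the authors' unscaled signal (total signal and highest coverage of a peak) and no read depth, so signal was used only to rank peaks within a library and no interval for depth can be given.

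Protein-coding start sites (41438, of 21851 genes) came from the basic GENCODE M21 annotation, without the mitochondrial genome. Calls required full separation of 3 against 3 libraries. Library measures were compared with two-sided exact permutation tests (20 splits) and Benjamini-Hochberg adjustment. In all, 37 lists were used, 20 of H3K27me3 and 17 of the other 3 marks. The 6 lists differ from one another. The study calls libraries of a group biological replicates, and nothing in the labels says that their numbers pair mice.

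Named promoters were the 12 with the largest mean difference in covered bases per direction among those called also with equal peak numbers, up to 4 called members per gene list and direction, the first 6 per direction called alike in H against C, and Gpam, Cyp2e1, Acacb, Icam1, Lyz2 and Tyrobp. Members, gene lists and tests were chosen with earlier results of these data known. Functional groups of called genes, and members named for them or for a pattern of marks, were chosen after their values were seen. Sequences were read from the RefSeq copy of GRCm38.p6. Scripts ran on Python 3.11.15 with numpy 2.4.6 and were tested on simulated peak lists.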

Additional observations from a re-analysis of the deposited data

Results flagged for a closer look

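Covered length and peak width of H3K27me3 stood differently against controls after the 2 diets, by a test that permuted the labels within each cohort. HC had 25.0 Mb in peaks against 52.0 Mb in CC_s, while HHC had 79.8 Mb against 65.9 Mb in CCC. The difference between the cohorts was -1.57 on the log2 scale (two-sided exact permutation p = 0.005, the smallest of 200 splits, 0.0125 after adjustment over 5 measures). For median peak width it was -1.14 (680 against 1147 bp in HC and CC_s, 1519 against 1266 bp in HHC and CCC) with the same exact permutation p of 0.005, adjusted 0.0125. All 3 HC libraries lay below all 3 CC_s libraries in both measures. A change in HC alone can give such a p, so it does not show that the cohorts moved in opposite directions.

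With single HC or CC_s libraries left out, the difference in covered length ran from -1.96 without HC replicate 3 to -0.92 without HC replicate 2, where 100 splits gave an exact permutation p of 0.01. It no longer passed 0.05 without CC_s replicate 3 (-1.45, exact permutation p = 0.06), and stood at the threshold without CC_s replicate 2 (p = 0.05 by the exact permutation test). The difference in width ran from -1.42 to -0.69, with exact permutation p between 0.01 and 0.04. Read depth per library is unknown, and its part in these widths was not tested.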

How the results depend on the processing

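Peak number (log2 difference -0.36 to -0.03 with a library left out), covered length (-1.68 to -0.64) and width (-1.16 to -0.43) kept their direction with single libraries left out, and no value of exact p fell below 0.1. At equal covered length the length difference was 0.000291 by construction. The share of peaks at promoters, HC minus CC_s, turned from 0.340 to -0.957 (equal peak numbers), -1.37 (equal numbers by highest coverage), -19.0 (equal covered length), -0.807 (top 50% by total signal), -2.14 and -1.23 (windows of 500 and 1000 bp either side) and -3.42 points (500 bp covered), and ran from -0.319 to 1.10 with a library left out. Promoters marked turned from -347 to 899 at equal covered length and ran from -726 to 99.3 with a library left out (the last without HC replicate 2). The causes were not tested.

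Gained promoters ran from 48 to 184, lost from 210 to 389 and the gained share of calls from 14.1% to 46.7% with a library left out, which can only add calls. Equal covered length gave 106 gained and 1 lost (99.1% gained). Gained counts were 11 (4.44%) and 19 (8.41%) with windows of 500 and 1000 bp and 6 (2.51%) with 500 bp covered, against 36 (16.6%). Alternatives added after seeing the data gave 188 gained (47.8%) with equal peak numbers and HC replicate 2 left out, 382 gained and 51 lost (88.2%) with equal covered length and HC replicate 2 left out, 537 gained and 434 lost (55.3%) without HC replicates 2 and 3, and 10 gained (6.85%) where the marked libraries had to share a base. Of the named promoters, 14 of 20 gains and 32 of 43 losses kept their call with equal peak numbers.

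Same-numbered HC and CC_s libraries did not deviate together (correlations -0.01, -0.03 and -0.05), so the numbers were not taken as pairs. With replicate number as a block the calls are 36 gained and 181 lost by construction, since a call needs full separation, and the smallest exact p is 0.25. Lists cut at the top 1% of signal blocks limit what can be seen: a promoter just below that limit counts as unmarked.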
